A study of Mus musculus with 3 samples.

Results

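The 9 receptor genes through which leukocytes sense chemoattractants were described in lipid A stimulated macrophages: *C3ar1* and *C5ar1* for complement peptides, *Cxcr4*, *Ccr1*, *Ccr2* and *Cx3cr1* for chemokines, the atypical receptor *Ccrl2*, and *Fpr1* and *Fpr2* for formylated peptides. These 9 genes were taken by symbol from 55536 annotated genes, of which 22015 were nuclear protein-coding genes. The libraries held cytosolic RNA of macrophages grown from the bone marrow of C57BL/6J mice (BMDM), given 100 ng/ml lipid A, the TLR4-activating part of lipopolysaccharide, for 25 min. Libraries were made from 1 µg of RNA after ribosomal RNA had been removed. The 3 libraries were labelled biological replicates 1 to 3 of 1 group, with the same donor record and with sex and age not collected. No untreated macrophages were analysed here, so every value is a level in stimulated cells and none is a response to lipid A. The labels do not say whether the replicates came from separate animals or cultures, so their spread may be partly technical. In such bulk RNA, fewer cells of a type and less RNA per cell cannot be told apart.

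Chemoattractant receptors are membrane-spanning receptors that couple mainly to inhibitory G proteins; ligand binding frees the beta-gamma subunits, which drive phosphoinositide 3-kinase gamma, calcium release and actin remodelling, and receptor kinases and arrestins then switch the receptor off. Monocytes carry Ccr2 to leave the bone marrow and enter inflamed tissue, Cx3cr1 marks patrolling monocytes and many tissue macrophages, and Cxcr4 holds cells in the marrow. Ccrl2 binds chemerin without signalling itself and is known as a gene that macrophages raise in response to lipopolysaccharide.

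The stretches upstream of 3 of these genes are shown, chosen after motif matches had been seen. *C3ar1* had the highest level of the 9 receptors. *Ccrl2* and *Cxcr4* differed most between the libraries among the 6 well-measured receptors. The stretches are RefSeq sequences of GRCm38.p6, read 5′ to 3′ on the strand of the gene and ending just before the annotated start. Capitals mark a match to the NF-kB consensus in *Ccrl2* (chr9:111057520-111057768, minus strand), to TGANTCA, the AP-1 motif, in *C3ar1* (chr6:122856162-122856407, minus strand) and to TATAAA, the TATA box, in *Cxcr4* (chr1:128592300-128592549, minus strand).
Ccrl2: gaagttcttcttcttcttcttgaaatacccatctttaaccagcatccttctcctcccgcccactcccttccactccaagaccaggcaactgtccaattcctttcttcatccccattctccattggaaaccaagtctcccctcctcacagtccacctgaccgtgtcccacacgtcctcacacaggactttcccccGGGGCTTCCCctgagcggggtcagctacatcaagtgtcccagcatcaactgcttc
C3ar1: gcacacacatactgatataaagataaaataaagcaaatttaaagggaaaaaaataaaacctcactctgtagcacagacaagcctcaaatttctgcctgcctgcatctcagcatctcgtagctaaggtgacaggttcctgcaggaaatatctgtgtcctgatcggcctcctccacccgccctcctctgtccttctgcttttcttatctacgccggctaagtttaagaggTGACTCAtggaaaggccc
Cxcr4: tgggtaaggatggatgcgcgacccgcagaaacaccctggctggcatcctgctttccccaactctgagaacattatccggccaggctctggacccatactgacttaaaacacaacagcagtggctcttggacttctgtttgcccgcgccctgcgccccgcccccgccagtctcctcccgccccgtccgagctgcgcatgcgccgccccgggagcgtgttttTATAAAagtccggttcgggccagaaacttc
The *Ccrl2* match lay 56 to 47 bases before the RefSeq start, the *C3ar1* match 22 to 16 bases and the *Cxcr4* match 30 to 25 bases. On either strand of the 250 bases before a start, the NF-kB consensus was found in 3.90% of 32851 RefSeq promoters, TGANTCA in 6.75% and TATAAA in 12.4%.

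Of the 9 receptors, *Ccrl2* alone held the NF-kB consensus in that window and *C3ar1* alone held TGANTCA. The TATA box motif was found in 4 of 9, CCAAT in 5 of 9 against 33.9% of all promoters, and GGGCGG, the motif of Sp1, in 3 of 9 against 32.7%. On the strand of the gene, the first of these motifs lay 30 to 25 bases before the start in *Cxcr4*. It lay farther away in the others, at 235 to 230 bases in *C3ar1*, 227 to 222 in *Fpr1* and 130 to 125 in *Fpr2*. The *C5ar1* window held AGGAAGT, an ETS family motif present in 7.69% of promoters. None of the 9 windows held TGACGTCA (1.55% of promoters), the SRF CArG box (1.47%), the interferon-stimulated response element (2.98%), TTGCNNAA (9.56%) or CACGTG (6.02%). The TATAAA and GGGCGG matches overlapped no other match, except that the TATAAA of *Cxcr4* read on both strands at positions shifted by 2 bases. The RefSeq start lay within 6 bases of the outermost GENCODE start of the gene for 6 of the 9 genes. It lay 202 bases from it for *C5ar1*, 233 for *Ccr2* and 1583 for *Cx3cr1*. Each of these 3 genes also has annotated transcripts that start inside that outermost start, and distances to them were not taken. The *Ccr2* transcript with the most counts, *Ccr2-202*, starts at 124105626, against 124101950 for the gene. These matches describe the letters in 1 window per gene, and the motifs and the promoters shown were chosen after matches had been seen.

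The depth was 53055764, 43620362 and 38623777 counts in replicates 1, 2 and 3, so that 3 counts stood for 0.0577, 0.0695 and 0.0759 CPM (counts relative to library size). TPM values, which also correct for transcript length, were used to compare genes. CPM with TMM scaling factors were used to compare libraries, because nuclear protein-coding genes held 22.7, 22.9 and 29.8% of the TPM, which lifts most TPM values in replicate 3. By TPM, 8 of the 9 receptors were highest in replicate 3, whereas by CPM 4 were highest in replicate 3, 4 in replicate 2 and 1 in replicate 1. All 10 macrophage markers reached 1 TPM in every library, against 0 of 8 dendritic cell and 0 of 8 mast cell, basophil and eosinophil markers. Between these lay 1 of 8 T and NK cell (*Cd4*), 1 of 7 B cell (*Ighm*), 3 of 7 monocyte and 6 of 15 neutrophil markers. The share of all nuclear protein-coding genes at that level was 41.3%, and the monocyte and neutrophil counts lay near it.

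Of these receptors, 6 had transcripts at 1 TPM or more in every library, with complement receptors highest and *Ccr2* lowest, and 3 lay below 1 TPM in every library. For scale, 41.3% of all nuclear protein-coding genes reached 1 TPM in every library. The median of the 9 mean levels was 11.9 TPM, beside 0.163 TPM over all nuclear protein-coding genes. *C3ar1* alone held 49.7% ± 3.95 (SD, n = 3) of the TPM of the 9 receptors, and *C5ar1* a further 22.6% ± 3.08.

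**Figure D1:**
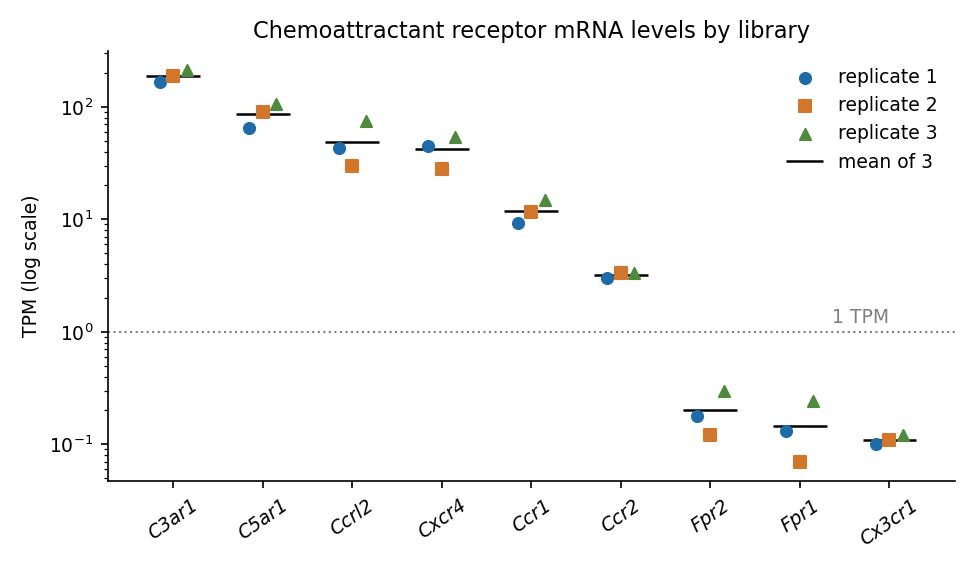
Level of each receptor mRNA in TPM (vertical log axis) in replicates 1, 2 and 3 (circle, square, triangle), with the mean of 3 as a black bar and 1 TPM as a dotted line. The means run from 188 TPM for C3ar1 to 3.22 TPM for Ccr2, and Fpr2, Fpr1 and Cx3cr1 lie at 0.30 TPM or less in every library.

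*C3ar1* encodes the receptor for the complement fragment C3a and lies on mm10 chromosome 6 at 122847138 to 122856161, minus strand. Its level was 166, 187 and 211 TPM in replicates 1, 2 and 3, with a mean of 188 ± 22.7 (SD, n = 3). That placed it at rank 171 of the nuclear protein-coding genes. From 70166, 61360 and 50811 counts its CPM were 1349, 1421 and 1285, so the order of the libraries by TPM was not their order by CPM. Counting error was small beside this: the 95% Poisson interval in replicate 1 was 1339 to 1359 CPM. With an SD of log2 CPM of 0.07 it varied less between libraries than most genes, at percentile 25.3 of 12744 genes.

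*C5ar1* encodes the receptor for C5a, a strong attractant of neutrophils and macrophages, and lies on chromosome 7 at 16246743 to 16259540, minus strand. Its level was 64.6, 89.7 and 105 TPM, a mean of 86.5 ± 20.6 (SD, n = 3) at rank 438. Its CPM were 263, 329 and 277, highest in replicate 2, with 95% Poisson intervals of 258 to 267, 323 to 334 and 272 to 282. The values of replicates 1 and 3 were thus close, and replicate 2 stood 1.25-fold above replicate 1. The SD of log2 CPM was 0.17 (percentile 63.1). The summed neutrophil markers were also highest in replicate 2, at 115, 145 and 117 CPM. The largest part of this sum was *Csf3r*, at 68.0, 76.0 and 72.4 CPM. The next largest, *Mmp8*, was instead lowest in replicate 2, at 19.8, 18.0 and 22.6 CPM (1028, 779 and 893 counts). The remaining markers ranged from *S100a9*, with 488, 657 and 322 counts, down to near 0. Among them, *Ngp* had 279, 502 and 126 counts, *Cxcr2* 15, 18 and 13 and *Ly6g* 0, 2 and 0. The part of neutrophil RNA in the *C5ar1* values was not tested.

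The third complement receptor, *C5ar2*, binds C5a without coupling to G proteins and lies beside *C5ar1* on chromosome 7 at 16234585 to 16244154, minus strand. It had 1.10, 1.54 and 1.66 TPM, far under *C5ar1* in every library. All 3 complement peptide receptors therefore passed 1 TPM. *C3ar1* stood above *C5ar1* in each library, by 2.57-, 2.08- and 2.01-fold in TPM, and the 2 ranges did not overlap.

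*Ccrl2*, the atypical receptor that binds chemerin, lies on chromosome 9 at 111054486 to 111057519, minus strand. Its level was 43.1, 30.1 and 74.2 TPM, a mean of 49.1 ± 22.7 (SD, n = 3) at rank 772. Counts of 7388, 4007 and 7029 gave 142, 92.8 and 178 CPM. The libraries were well separated: replicate 2 was lowest and replicate 3 highest, and their 95% Poisson intervals of 89.9 to 95.7 and 174 to 182 CPM lay far apart. The SD of log2 CPM of 0.48 was the largest of the 6 receptors with a mean count of 100 or more. It lay at percentile 90.7 of the same 12744 genes as above. Of the 5 atypical receptors listed, *Ccrl2* was the 1 gene at 1 TPM or more, the other 4 having at most 0.06 TPM.

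*Cxcr4*, the receptor for Cxcl12, lies on chromosome 1 at 128588199 to 128592293, minus strand. Its level was 45.3, 28.1 and 54.4 TPM, a mean of 42.6 ± 13.3 (SD, n = 3) at rank 920. By CPM the libraries had 131, 77.8 and 120, so replicate 2 was again lowest, but replicates 1 and 3 lay close together. The SD of log2 CPM was 0.40 (percentile 87.7). Set beside *Ccrl2* in TPM, *Cxcr4* was higher in replicate 1 and lower in replicates 2 and 3, with ratios of *Ccrl2* to *Cxcr4* of 0.95, 1.07 and 1.37, so that their order was not settled by these libraries.

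*Ccr1* encodes a receptor for Ccl3, Ccl5, Ccl6 and Ccl9 and lies on chromosome 9 at 123962124 to 123968692, minus strand. Its level was 9.35, 11.6 and 14.9 TPM, a mean of 11.9 ± 2.77 (SD, n = 3) at rank 3292. The CPM of 48.6, 56.3 and 58.0 were lowest in replicate 1 and close in the other libraries. Its SD of log2 CPM of 0.14 was at percentile 53.7. *Cxcr4* exceeded it by 2.43- to 4.84-fold in TPM and it exceeded *Ccr2* by 3.10- to 4.48-fold, with no overlap of ranges in either pair.

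*Ccr2*, the receptor for Ccl2 and Ccl7, lies on chromosome 9 at 124101950 to 124113557, plus strand. Its level was 3.02, 3.33 and 3.32 TPM, a mean of 3.22 ± 0.18 (SD, n = 3) at rank 7179. Counts of 1042, 899 and 637 gave 20.0, 20.8 and 16.1 CPM, so the low library by CPM was replicate 3. The alignment-free tables gave 1.41, 0.95 and 0.77 TPM, below 1 TPM in 2 libraries, though their scale also differs for other genes: protein-coding genes held 10.7, 6.27 and 6.54% of it. *Ccr2* was the 1 gene of the 9 whose deposited posterior SD of the count was above 0, at 1.72, 1.93 and 1.65 counts. Against counts of 637 or more, that uncertainty in assigning reads was small.

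*Cx3cr1*, the receptor for fractalkine (Cx3cl1), lies on chromosome 9 at 119901616 to 120069879, minus strand, in a span that contains or meets 9 other genes. Its level was 0.10, 0.11 and 0.12 TPM, from 36, 32 and 24 counts. These counts gave 0.69, 0.74 and 0.61 CPM, above the level of 3 counts in each library but far below the other chemokine receptors described here. The overlapping genes included *Wdr48* with 2271, 1785 and 1790 counts on the opposite strand and *Csrnp1* with 3456, 2279 and 4475 counts on the same strand. The part of the span from 119901616 comes from *Cx3cr1-202*, a transcript with 0 counts in every library. The alignment-based tables placed all *Cx3cr1* counts on *Cx3cr1-201*, at 120048683 to 120068296, with a posterior SD of 0. No source used here says whether the counting was stranded. Any part of the overlapping genes was not tested, and the *Cx3cr1* counts are few and uncertain.

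*Fpr1* and *Fpr2* encode the receptors for bacterial and mitochondrial formylated peptides, and lie next to each other on chromosome 17, at 17876471 to 17883940 on the minus strand and 17887824 to 17893952 on the plus strand. *Fpr1* had 15, 6 and 16 counts, or 0.13, 0.07 and 0.24 TPM. *Fpr2* had 15, 8 and 15 counts, or 0.18, 0.12 and 0.30 TPM. Both were thus lowest in replicate 2, but at this depth the difference is not firm: the 95% Poisson intervals for *Fpr1* were 0.161 to 0.476, 0.0510 to 0.302 and 0.231 to 0.657 CPM, and all 3 overlapped. Those of *Fpr2* overlapped likewise, at 0.161 to 0.476, 0.0800 to 0.365 and 0.212 to 0.626 CPM. *Fpr3*, which shares part of the *Fpr2* locus, and the other 4 listed formyl peptide receptors had 0 counts in all 3 libraries. The formyl peptide family, with 0 of 7 genes at 1 TPM, thus lay under the complement family, with 3 of 3.

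The full order of the mean levels was *C3ar1*, *C5ar1*, *Ccrl2*, *Cxcr4*, *Ccr1*, *Ccr2*, *Fpr2*, *Fpr1* and *Cx3cr1*. Of the 8 pairs of neighbours, 4 had ranges over the libraries that did not overlap: *C3ar1* over *C5ar1*, *Cxcr4* over *Ccr1*, *Ccr1* over *Ccr2*, and *Ccr2* over *Fpr2* by 11.1- to 27.8-fold. The pairs *C5ar1* and *Ccrl2*, *Ccrl2* and *Cxcr4*, *Fpr2* and *Fpr1*, and *Fpr1* and *Cx3cr1* had ranges that overlapped. Overlap across libraries does not show that 2 genes were equal within a library. Within each library *C5ar1* nonetheless exceeded *Ccrl2*, by 1.498-, 2.98- and 1.42-fold, and *Fpr2* exceeded *Fpr1*, by 1.38-, 1.71- and 1.25-fold. In a two-sided exact permutation test of log2(TPM + 0.1), 3 libraries against 3, the 4 separate pairs had p = 0.1, the smallest this design allows (Benjamini-Hochberg adjusted over 8 pairs, 0.2). For the overlapping pairs, in the order given, the exact p was 0.2, 0.8, 0.5 and 0.7 (adjusted, 0.32, 0.8, 0.667 and 0.8). The test treats the values of 2 genes as independent, although they come from the same libraries. Neighbours were also ranked by the values tested, so the test cannot decide their order.

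Across the receptor families, 8 of 33 genes analysed here had 1 TPM or more in every library, beside 41.3% of all nuclear protein-coding genes. Of those 8, 6 were receptors described above, which had been chosen with earlier results of these data known. The other 24 receptors included 2 at that level, *Cxcr3* and *C5ar2*. *Cxcr3*, known mainly from T cells, had 1.97, 1.71 and 3.02 TPM, below *Ccr2* in every library. The alignment-based counts were 0 in all 3 libraries for 8 of the 24, of which 5 were formyl peptide receptors. The share of all genes with 0 counts is not given here, so this number has no scale. Alignment-free counts in replicates 1, 2 and 3 were also 0 for these 5. They were not all 0 for *Ccr4* (1.09, 3.16 and 1.12), *Ackr1* (1, 0 and 0) and *Ackr3* (0, 3 and 0). Counts of 0 allow up to 0.0577, 0.0695 and 0.0759 CPM in replicates 1 to 3.

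**Figure D2:**
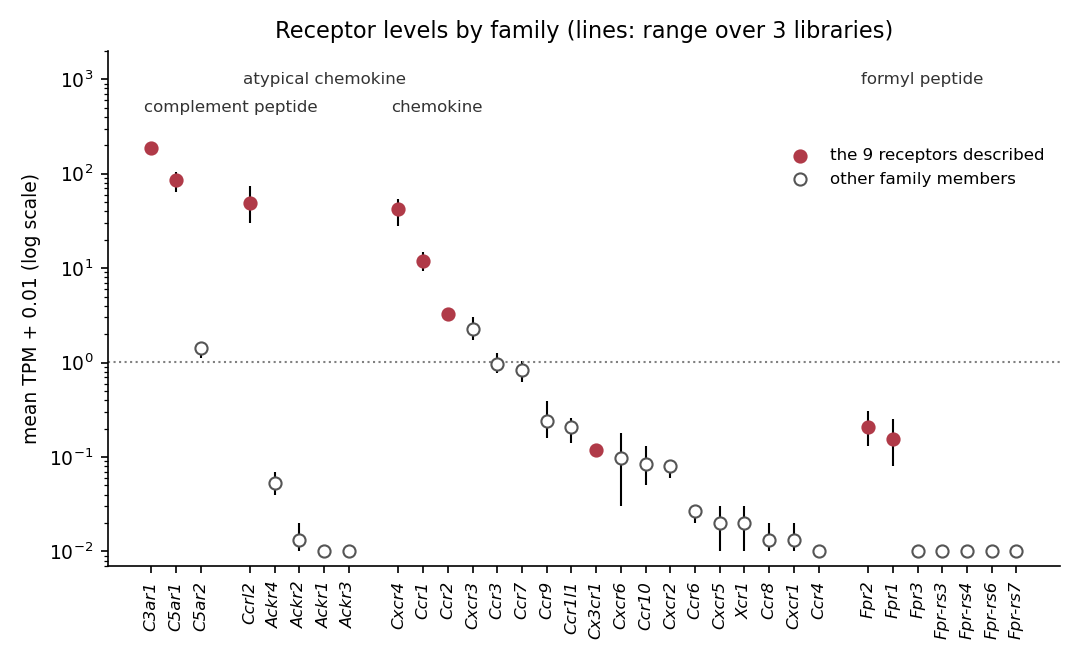
Mean level of 33 receptors in TPM plus 0.01 (vertical log axis), by family, with the range over 3 libraries as a line, the 9 receptors described filled and the other 24 open, and 1 TPM as a dotted line. The highest mean of each family belongs to one of the 9, which were chosen with earlier results of these data known. All 7 formyl peptide receptors lie below 1 TPM.

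*Ccr1* and *Ccr2* lie in a stretch of chemokine receptor genes on chromosome 9 that also holds *Cxcr6*, *Xcr1*, *Ccr1l1* and *Ccr3*. From *Cxcr6*, starting at 123806475, to *Ccr2*, ending at 124113557, the levels differed widely between neighbours. *Ccr3* had 0.77, 1.26 and 0.86 TPM, *Ccr1l1* 0.13, 0.22 and 0.25 TPM, *Cxcr6* 0.02, 0.17 and 0.07 TPM and *Xcr1* 0.00, 0.01 and 0.02 TPM. Of these 6 genes, *Ccr1* and *Ccr2* passed 1 TPM in every library. *Ccrl2* and *Cx3cr1* are on the same chromosome but outside that stretch.

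Between libraries, *Ccrl2* and *Cxcr4* varied most among the 6 receptors whose mean count was at least 100: their highest CPM were 1.92 and 1.68 times their lowest, beside 1.11 to 1.29 times for *C3ar1*, *Ccr1*, *C5ar1* and *Ccr2*. Of these 6 receptors, 0 differed over 2-fold in CPM between any 2 libraries. Of all genes this abundant, 1.53% did so between replicates 2 and 1, 0.541% between replicates 3 and 1, and 2.88% between replicates 3 and 2. At 1.5-fold, *Ccrl2* and *Cxcr4* passed between replicates 2 and 1 (4.99% of all genes passed), with replicate 2 at 0.65 and 0.59 of replicate 1. The same 2 receptors passed between replicates 3 and 2 (7.9% of all genes), where replicate 3 was 1.92-fold and 1.55-fold higher. Between replicates 3 and 1 (2.7% of all genes) 0 of 6 passed, the *Ccrl2* fold being 1.25 and that of *Cxcr4* 0.92. All of these are ratios of single libraries, with no test.

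Replicate 2 also stood apart in 2 long noncoding RNAs that stay mostly in the nucleus: *Malat1* had 2685, 9481 and 1948 CPM and *Neat1* 305, 910 and 300 CPM. Being lowest in replicate 2, as *Ccrl2* and *Cxcr4* were, was common: 44.0% of 9927 nuclear protein-coding genes whose mean count was at least 100 had it. The part of these RNAs in the receptor values was not tested.

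The early response genes, a list of 12 transcripts that macrophages are known to raise soon after TLR4 ligation, had summed levels of 5991, 6873 and 8483 CPM and all passed 1 TPM. Replicate 3 was highest for 11 of the 12, *Fos* being the exception. The share of all genes highest in replicate 3 is not given here, so this count has no scale. *Ccrl2* shared the order of libraries (2 lowest, then 1, then 3) with 5 of the 12: *Nfkbia*, *Tnf*, *Ccl3*, *Ccl4* and *Il1b*. For *Ccl4* the order of the lower pair is not resolved, since replicates 1 and 2 had 104.26 and 104.23 CPM. That order was also that of 26.0% of the 9927 genes, and *Cxcr4*, whose order was 2, 3, 1, did not have it. *Nfkbia*, which encodes the NF-kB inhibitor, had 521, 418 and 857 CPM, and *Tnf* had 390, 359 and 747 CPM, beside 142, 92.8 and 178 for *Ccrl2*. Late response genes were mostly low, 2 of 10 reaching 1 TPM in every library, beside 41.3% of all nuclear protein-coding genes.

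**Figure D3:**
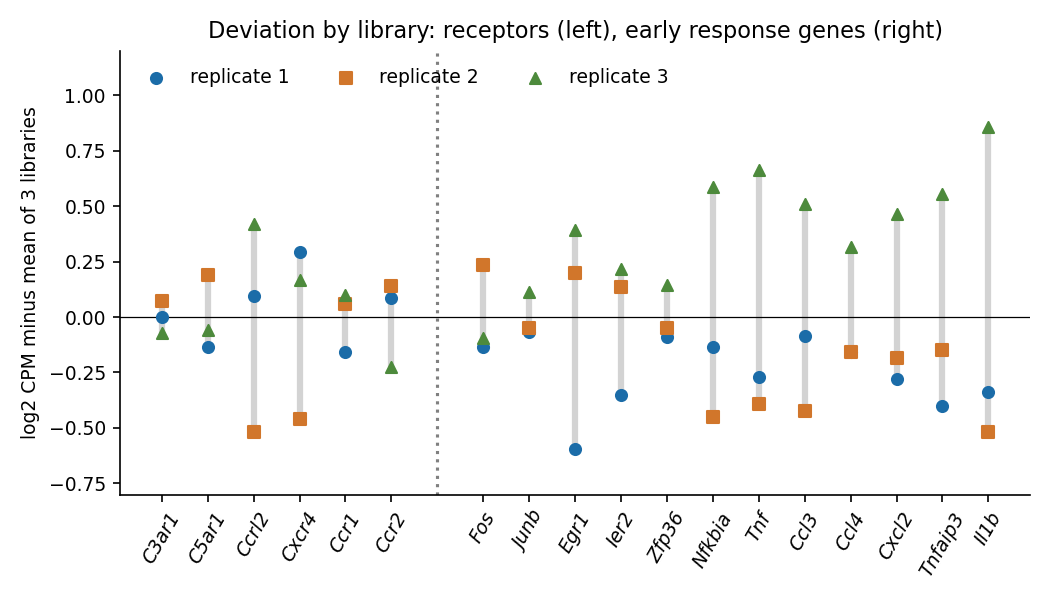
Deviation of log2 CPM from the mean of 3 libraries (vertical axis, log2 units) for the 6 receptors with a mean count of 100 or more (left of the dotted line) and 12 early response genes (right), by replicate. Ccrl2 runs from -0.52 in replicate 2 to 0.42 in replicate 3 and Cxcr4 from -0.46 in replicate 2 to 0.29 in replicate 1, while C3ar1 stays within -0.07 and 0.07.

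Genes with the pattern most like each of the 3 receptors of largest spread, among the 6 with at least 100 counts on average, were taken by the distance of their deviations over the 3 libraries, among 9926 other genes. For *Ccrl2* they were *Lrrc14b* (9.69, 6.35 and 12.1 CPM), *Gm49342* and *Ifi206*, and 22 genes lay within a distance of 0.1. For *Cxcr4* they were *Cd33* (86.9, 50.7 and 80.0 CPM), *Irf7* and *Insig1*, with 9 genes within 0.1. For *Ccr2*, with its smaller deviations, 272 genes lay that close, led by *Yae1d1*, *Gcfc2* and *E2f6*. With 3 points from the same libraries a gene, such likeness is weak and is given as a description.

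The deposited tables also split each gene into its annotated transcripts. *C3ar1*, *Ccr1* and *Fpr1* have 1 annotated transcript each. *Cxcr4* was read almost wholly from *Cxcr4-201*, with 93.9% ± 0.85 (SD, n = 3) of the gene's counts in the alignment-based tables and 89.5% ± 0.93 in the alignment-free tables. The leading *Ccrl2* transcript, a 3-exon form, had 73.9% ± 3.95 and 67.8% ± 5.25. In *Ccr2* the single-exon *Ccr2-202* led, with 70.8% ± 6.27 and 60.6% ± 4.69. The leading transcript was therefore the same in both quantifications for these 3 genes.

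*C5ar1* was different. The alignment-based tables gave *C5ar1-201* 75.9, 83.4 and 61.0% of the gene's counts, and the alignment-free tables gave it 21.2, 41.2 and 22.1%. *C5ar1-202* had 21.7% ± 9.29 and 61.5% ± 10.5 (SD, n = 3). The 2 quantifications thus named different leading *C5ar1* transcripts in every library, without overlap of their shares. The gene's total moved far less, the alignment-free count being 1.15, 1.17 and 1.16 times the alignment-based one.

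**Figure D4:**
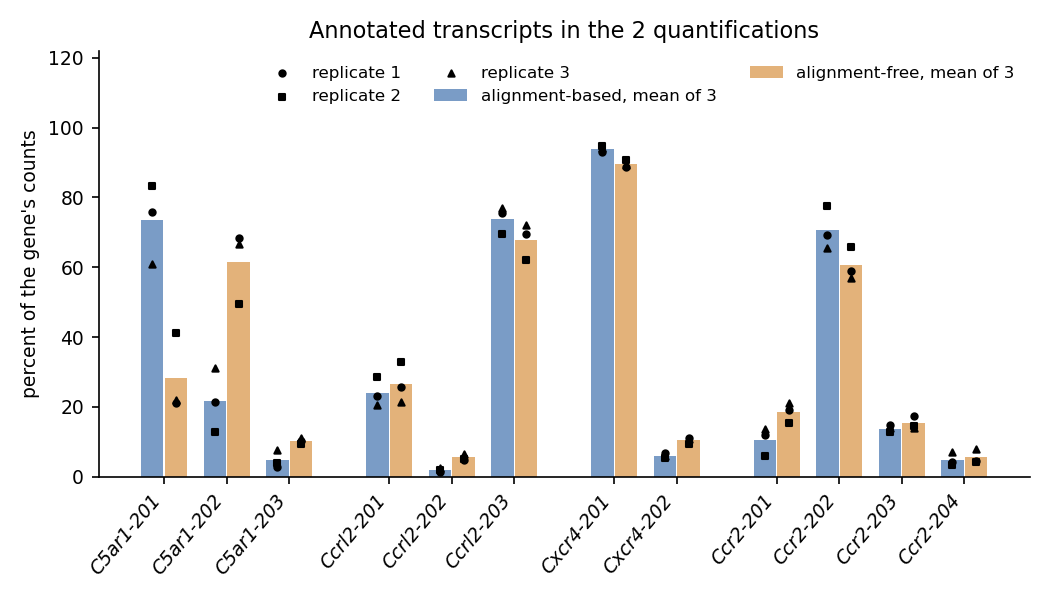
Share of the gene's counts (percent, vertical axis) on each annotated transcript of 4 receptors, as the mean of 3 libraries (bars) with replicates as symbols, in the alignment-based (blue) and alignment-free (tan) tables. C5ar1-201 has 73.4% in the first and 28.2% in the second, while Cxcr4-201 has 93.9 and 89.5%.

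Ligands of these receptors were present at very unequal levels, 12 of 17 listed genes reaching 1 TPM in every library, beside 41.3% of all nuclear protein-coding genes. The highest were *Ccl3*, at 147, 123 and 286 TPM, *Ccl4*, at 119, 126 and 211 TPM, and *Ccl6*, at 121, 147 and 182 TPM; Ccl3 and Ccl6 bind Ccr1. The Ccr2 ligands *Ccl2* (30.0, 47.8 and 80.2 TPM) and *Ccl7* (27.3, 44.9 and 65.3 TPM) exceeded *Ccr2* itself in every library. *Anxa1*, whose protein acts on formyl peptide receptors, had 125, 143 and 152 TPM. The Cxcr4 ligand *Cxcl12* (0.01, 0.01 and 0.04 TPM), the Cx3cr1 ligand *Cx3cl1* (0.08, 0.13 and 0.12 TPM) and the chemerin gene *Rarres2* (0.01, 0.02 and 0.03 TPM) lay far below their receptors or, for *Cx3cl1*, at a like low level. *C3*, the source of C3a, had 2.85, 2.36 and 6.01 TPM, and *Hc*, which encodes C5, had 0 counts in all 3 libraries. Apart from the 3 highest, these ligands were named after their values had been seen.

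Receptors for lipid attractants and chemerin formed a further list, with 7 of 13 genes at 1 TPM in every library. The share of all nuclear protein-coding genes was 41.3%. *Ptafr*, the receptor for platelet-activating factor, had 77.3, 75.0 and 103 TPM, a range that overlapped that of *C5ar1*. *Cmklr1*, the signalling chemerin receptor, had 12.8, 14.1 and 21.7 TPM, under *Ccrl2* in each library, and *S1pr1*, a receptor for sphingosine 1-phosphate, had 9.97, 11.2 and 12.2 TPM.

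Most listed genes of the machinery downstream of the receptors reached 1 TPM in every library, beside 41.3% of all nuclear protein-coding genes. Of 21 genes of G protein signalling in chemotaxis, 19 reached 1 TPM in every library, led by *Cdc42*, a GTPase of cell polarity (169, 166 and 212 TPM), *Gnai2*, the main inhibitory alpha subunit of leukocytes (147, 143 and 197 TPM), and *Gng5*, a gamma subunit (114, 78.1 and 160 TPM). *Gnai1*, another inhibitory alpha subunit, had 0, 1 and 0 counts, and *Gnb4* passed 1 TPM in 1 library. Of 14 genes that switch such receptors off, 11 reached 1 TPM in every library, led by *Rgs1* (107, 110 and 173 TPM), *Rgs10* (83.1, 66.1 and 112 TPM), both accelerators of G protein inactivation, and the arrestin gene *Arrb2* (48.3, 51.0 and 61.8 TPM).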

How the data were processed

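RNA-seq tables of 3 libraries of 1 group were used. Per the file headers and the text records deposited with them, the authors quantified reads on mm10 with GENCODE M21. The deposited alignment-based tables hold expected counts per gene and transcript, with their posterior SD as another value, and TPM scaled over all rows. The deposited alignment-free tables hold estimated counts and TPM per transcript, which were summed to genes here. The sources used here name neither tool versions nor strand settings.

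From these, expected counts were rounded to whole numbers, and rows that name no gene (0.186, 0.167 and 0.0395% of counts in replicates 1 to 3) were left out. CPM used TMM factors of edgeR 4.0.16 (R 4.3.3), and log2 CPM a prior count of 2. Genes passing filterByExpr (12744) gave the percentiles of spread, and a mean count of 100 or more was required for folds between libraries. Poisson intervals are exact at 95% and, like the level that 3 counts stand for, reflect counting error alone, because without molecular identifiers PCR copies count as separate reads. With 1 group there was no test between conditions. On simulated data of 12744 genes, a 2-fold change given to 200 was recovered with a median log2 difference of 1.01.

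Members and the 18 gene lists were chosen with earlier results of these data known. Of the genes listed, 1 is not reported here. Named genes are the 9 members, the listed receptors, the 3 highest other genes of a list and the 3 genes most like each of the 3 members of largest spread among those with a mean count of 100 or more; other named genes were chosen after their values were seen. Motifs were searched on both strands, as 11 patterns kept after others (a looser NF-kB pattern, GAGGAA and TGACG) had been looked at. The alternatives tried were other detection levels, prior counts and count minimums, DESeq2 1.42.0 size factors, library size alone, the alignment-free tables, TPM over protein-coding genes, a 1.5-fold limit and each replicate left out. Python 3.11.15 with pandas 2.3.3, numpy 2.4.6 and matplotlib 3.10.9 made the tables and plots.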

Additional observations from a re-analysis of the deposited data

How the results depend on the processing

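The count of 6 receptors at 1 TPM or more in every library was 6 at 0.5 TPM, over protein-coding genes alone and without any replicate, and 5 at 5 TPM and in the alignment-free tables, where *Ccr2* was the receptor lost. The count of 0 receptors over 2-fold apart became 1 (*Fpr1*, replicate 2 against 1) and 2 (*Fpr1* and *Fpr2*, replicate 3 against 2) with no count minimum, where those genes had 6 to 16 counts; it became 2 in each of these comparisons at 1.5-fold. The 1.5-fold counts were the same with DESeq2 size factors, library size, alignment-free counts and a minimum of 20, all chosen after seeing the data. Of the 8 neighbours in the order of levels, 7 kept it in the alignment-free tables (*Fpr1* and *Cx3cr1* turned) and 6 without replicate 3 (*Ccrl2* and *Cxcr4* turned too). Alignment-free levels were lower for all 9, at 56.8 TPM for *C3ar1*, 31.8 for *C5ar1*, 16.4 for *Ccrl2*, 14.7 for *Cxcr4*, 3.43 for *Ccr1* and 1.04 for *Ccr2*. Over protein-coding genes alone, alignment-free and alignment-based levels differed by 0.95 to 1.32 times. The SD of log2 CPM rested on 1 library for 5 of the 6 receptors with at least 100 counts on average: without replicate 2 it was 0.23 for *Ccrl2*, 0.09 for *Cxcr4* and 0.05 for *C5ar1*, without replicate 1 it was 0.03 for *Ccr1*, and without replicate 3 it was 0.04 for *Ccr2*. No paired analysis was possible because the replicate numbers lie in 1 group and so pair no libraries across groups; ratios of receptors within each library are given with the order of levels. *Fpr1*, *Fpr2* and *Cx3cr1*, with 6 to 36 counts, are limited by depth.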
